A study of Sus scrofa with 24 samples.

Results

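The B cell follicle and Peyer's patch genes described here are CD79B, MS4A1, CR2, CCR7, CXCR5, PAX5, BCL6 and CXCL13. They were taken by name from a table of 20674 pig genes. Of the 8 genes, 7 have a row under that name, and CR2 is not analysed here. RNA was sequenced from the colon and the ileum of sows at gestation day 114, with poly(A) selection. The sows had been fed from breeding on with a diet of 7.46% crude fibre plus 0.05% N-carbamylglutamate (NCG, an analogue of the cofactor that activates the first step of the urea cycle and thereby arginine synthesis), called HN; of 7.46% crude fibre alone, HF; of 3.73% crude fibre plus 0.05% NCG, LN; or of 3.73% crude fibre alone, LF. Each of the 8 tissue and diet groups has 3 libraries, and the labels do not say whether these come from separate sows or whether colon and ileum libraries share sows, so p-values measure only the spread between these libraries.

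Follicles of the gut wall are clusters of B cells around a network of stromal cells and, when active, a germinal centre. In pigs they lie in Peyer's patches of the small intestine and in scattered follicles of the colon. CXCL13, a chemokine of follicular stroma, draws B cells that carry its receptor CXCR5, whereas CCR7 guides lymphocytes to the T cell zones beside the follicle. A sample of the bowel wall holds few or many follicles depending on where it was cut, and in bulk tissue fewer cells of a type and less RNA per cell cannot be told apart.

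Depth was 11951729 to 19896941 counts per library. Library levels are given as CPM, the count of a gene relative to the library total scaled by trimmed mean of M-values (TMM). Levels of different genes are compared only as FPKM, which divide the count by the length of the gene and the library total, without TMM. Several libraries stood apart in genes of other cell types; of these genes, SLC10A2, GP2, TNFSF11, ADIPOQ, APOA4 and MYH11 were chosen after their values were seen. FABP6, the bile acid binding protein of the distal ileum, reached 767, 4229 and 8171 CPM in ileum HN 2, HF 2 and LF 1, against 37.3 CPM in ileum HN 3 and at most 13.6 CPM in the other 8 ileum libraries. It had no count in ileum LF 3. The median of FABP6 was 5.35 CPM in ileum and 2.23 CPM in colon libraries. SLC10A2, another distal ileum gene, had a median of 0.234 CPM in ileum and 6.57 CPM in colon, with 290 CPM in ileum HF 2. The small intestinal gene APOA4 had a median of 265 CPM in ileum and 0.0912 CPM in colon. The labels do not give the position of the pieces along the small intestine. Ileum LN 3 had 1127 CPM of the fat cell gene ADIPOQ and 49.3 CPM of the plasma cell gene JCHAIN. Colon HN 1 and LF 2 had 216 and 354 CPM of JCHAIN with 36602 and 26231 CPM of the smooth muscle gene MYH11. Within groups, the lowest correlation of log2 CPM between libraries was 0.754.

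The follicle genes varied widely between libraries of the same group. Except for BCL6, they were highest in the same 3 ileum libraries, HN 2, HF 2 and LF 1, of 3 different diets. For BCL6 the 3 highest ileum libraries were HN 2, HF 2 and LN 3. In the colon, LN 2 was highest in 6 of the 7 genes and HN 1 or LF 2 was lowest in 4. For no member did edgeR's quasi-likelihood test with Benjamini-Hochberg adjustment give an adjusted p under 0.05 in any of the 19 comparisons.

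**Figure D1:**
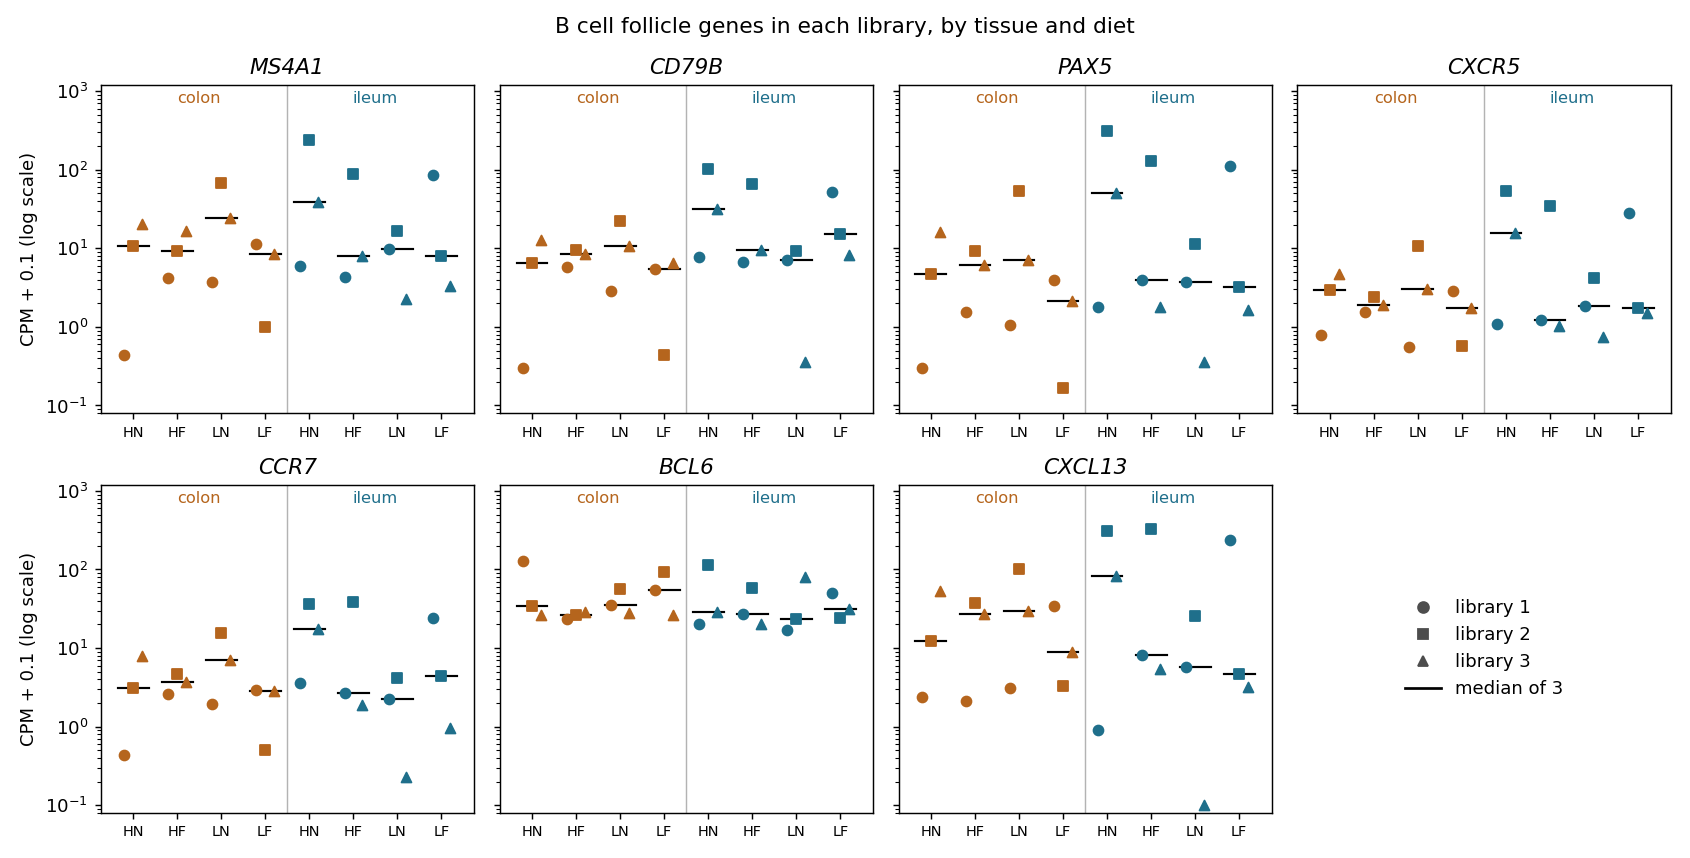
Level of the 7 genes in each of the 24 libraries as CPM plus 0.1 on a log axis, with colon groups left of ileum groups; symbols mark library 1, 2 or 3 and lines the median of 3. Ileum HN 2, HF 2 and LF 1 are the highest libraries of their groups in all 7 genes, and BCL6 spreads least.

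MS4A1 encodes CD20, a surface protein of mature B cells, and lies at chr2:11216238-11229060 on the minus strand of Sscrofa11.1. In the colon it had 0.339, 10.5 and 20.3 CPM in HN, 4.05, 9.26 and 16.4 CPM in HF, 3.65, 67.1 and 24.5 CPM in LN, and 11.2, 0.888 and 8.42 CPM in LF. Ileum libraries had 5.86, 237.8 and 38.9 CPM in HN, 4.25, 88.2 and 7.81 CPM in HF, 9.63, 16.4 and 2.14 CPM in LN, and 84.8, 7.97 and 3.20 CPM in LF. Colon HN 1 and LF 2 were low and colon LN 2 was high, while ileum HN 2, HF 2 and LF 1 were above every other library of either tissue. By median the groups ran, high to low, ileum HN, colon LN, colon HN, ileum LN, colon HF, colon LF, ileum LF and ileum HF. Every pair of groups overlapped, so no neighbours in that order differ beyond their spread.

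CD79B, the signalling subunit of the B cell receptor, lies at chr12:15052966-15056441 on the plus strand. It had 0.203, 6.37 and 12.6 CPM in colon HN, 5.63, 9.56 and 8.35 CPM in colon HF, 2.75, 22.1 and 10.7 CPM in colon LN, and 5.31, 0.342 and 6.41 CPM in colon LF. In the ileum it had 7.55, 102.8 and 31.5 CPM in HN, 6.66, 66.6 and 9.41 CPM in HF, 7.04, 9.02 and 0.259 CPM in LN, and 51.7, 15.2 and 8.16 CPM in LF. The lowest values rest on 3 counts in colon HN 1, 5 in colon LF 2 and 4 in ileum LN 3. The order by median was ileum HN, ileum LF, colon LN, ileum HF, colon HF, ileum LN, colon HN and colon LF, and neighbouring groups overlapped. All 3 colon LF libraries were below all ileum HN, HF and LF libraries, and within a tissue all diets overlapped.

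PAX5, the transcription factor that holds cells in the B lineage, lies at chr1:237574938-237785454 on the minus strand. Colon libraries had 0.203, 4.65 and 16.0 CPM in HN, 1.44, 9.02 and 6.07 CPM in HF, 0.955, 54.2 and 6.92 CPM in LN, and 3.82, 0.0683 and 2.06 CPM in LF. Ileum libraries had 1.69, 308.2 and 50.0 CPM in HN, 3.85, 130.1 and 1.69 CPM in HF, 3.65, 11.103 and 0.259 CPM in LN, and 112, 3.09 and 1.53 CPM in LF. The ileum HN libraries differed from each other by a factor of 183, and those of LN by 42.9. The 3 high ileum libraries were again HN 2, HF 2 and LF 1. Medians ran from ileum HN through colon LN, colon HF, colon HN, ileum HF, ileum LN and ileum LF to colon LF, with overlap between all groups.

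BCL6, the repressor that B cells and follicular helper T cells need for the germinal centre and that many other cells also express, lies at chr13:125377247-125401328 on the minus strand. Its colon levels were 128, 34.6 and 25.9 CPM in HN, 23.0, 26.0 and 28.9 CPM in HF, 35.7, 56.4 and 27.6 CPM in LN, and 54.5, 94.0 and 26.6 CPM in LF. Its ileum levels were 20.3, 113 and 28.4 CPM in HN, 26.9, 57.8 and 19.9 CPM in HF, 16.9, 23.6 and 79.6 CPM in LN, and 49.9, 24.2 and 30.9 CPM in LF. The highest colon libraries were HN 1 and LF 2, where MS4A1, CD79B and PAX5 were lowest, and ileum LN 3 was high in BCL6 but lowest in the other 6 genes. Those 3 libraries are the ones with little JCHAIN; whether their tissue makeup accounts for the BCL6 level was not tested. All groups overlapped, and the order of the medians was colon LF, colon LN, colon HN, ileum LF, ileum HN, ileum HF, colon HF and ileum LN.

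CXCL13 lies at chr8:73071261-73077342 on the plus strand. In the colon it had 2.30, 12.3 and 53.5 CPM in HN, 1.99, 37.5 and 26.7 CPM in HF, 2.98, 101.2 and 29.3 CPM in LN, and 34.0, 3.21 and 8.90 CPM in LF. In the ileum it had 0.800, 312.4 and 82.6 CPM in HN, 8.18, 325.3 and 5.27 CPM in HF, 5.65, 25.2 and 0 CPM in LN, and 236.3, 4.64 and 3.13 CPM in LF. The absence of counts in ileum LN 3 allows a level of up to 0.194 CPM, counting error only. Ileum HN spanned a factor of 391 between its libraries. The medians were ordered ileum HN, colon LN, colon HF, colon HN, colon LF, ileum HF, ileum LN and ileum LF, and all groups overlapped.

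CXCR5, the receptor for CXCL13 on B cells and follicular helper T cells, lies at chr9:46134243-46146638 on the plus strand. It had 0.678, 2.88 and 4.67 CPM in colon HN, 1.44, 2.33 and 1.81 CPM in colon HF, 0.449, 10.5 and 2.90 CPM in colon LN, and 2.80, 0.478 and 1.63 CPM in colon LF. In the ileum it had 0.977, 54.1 and 15.6 CPM in HN, 1.12, 34.4 and 0.941 CPM in HF, 1.73, 4.10 and 0.647 CPM in LN, and 27.95, 1.62 and 1.38 CPM in LF. The high libraries were those of CXCL13, and all groups overlapped. Their medians ran ileum HN, colon LN, colon HN, colon HF, ileum LN, colon LF, ileum LF and ileum HF. CCR7, at chr12:21857286-21869211 on the plus strand, had a lowest, median and highest level of 0.339, 2.90 and 15.4 CPM in the 12 colon libraries, against 0.129, 3.75 and 38.4 CPM in the 12 ileum libraries. Its colon LF libraries, at 0.410 to 2.80 CPM, lay below all 3 ileum HN libraries, at 3.47 to 36.2 CPM, and its other groups overlapped.

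Per length, CXCL13 had the highest median of the 7 genes in the colon, at 16.3 FPKM, followed by CD79B at 4.30, MS4A1 at 4.23, BCL6 at 2.99, CCR7 at 1.41, CXCR5 at 0.701 and PAX5 at 0.424 FPKM. In the ileum the median levels were 5.51 FPKM for CD79B, 5.31 for CXCL13, 3.51 for MS4A1, 2.43 for BCL6, 1.68 for CCR7, 0.539 for CXCR5 and 0.338 FPKM for PAX5. The ileum means were much above these medians, with CXCL13 at 80.9 ± 127 FPKM (SD, n = 12) and MS4A1 at 20.9 ± 37.2 FPKM. The colon means were 22.6 ± 26.5 FPKM for CXCL13 and 6.52 ± 8.51 FPKM for MS4A1. HN 2, HF 2 and LF 1, 3 of the 12 ileum libraries, held 89.2% of the summed ileum FPKM of PAX5, 87.9% of CXCL13, 83.8% of MS4A1, 82.7% of CXCR5, 75.6% of CCR7, 73.7% of CD79B and 50.5% of BCL6.

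The spread within diet groups was among the widest of all genes. The residual standard deviation of log2 CPM in the colon was 2.41 for PAX5, 2.21 for CXCL13, 2.095 for MS4A1, 1.92 for CD79B, 1.48 for CCR7, 1.39 for CXCR5 and 0.81 for BCL6, against a median of 0.47 over 15075 genes. In the ileum it was 3.78 for CXCL13, 3.23 for PAX5, 2.42 for CXCR5, 2.26 for MS4A1, 2.14 for CCR7, 1.93 for CD79B and 0.999 for BCL6, against a median of 0.45 over 15103 genes. CXCL13 ranked 27th from the top there and PAX5 54th. In the colon PAX5 ranked 60th and CXCL13 118th. BCL6 was the exception, with 13.9% of ileum genes and 25.5% of colon genes spreading more widely.

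Apart from BCL6, the members moved together from library to library. Across the 12 colon libraries, which share tissue and differ in diet, Pearson correlations of log2 CPM between pairs of the other 6 genes were 0.77 to 0.97. Across the 12 ileum libraries they were 0.84 to 0.98. BCL6 had correlations of -0.76 to -0.29 with them in the colon and of 0.19 to 0.57 in the ileum. Spearman's rho for the same pairs of those 6 genes was 0.80 to 0.99 in the colon and 0.76 to 0.98 in the ileum. All of these values are a description.

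Among the 10 genes most like the mean of the members, ranked over 15668 genes by the smaller of the colon and ileum correlations over 12 libraries each, were FCER2 (0.97 in colon, 0.98 in ileum), TNFRSF13C (0.97, 0.98), LTB (0.97, 0.97) and LOC100515383 (0.96, 0.97). IL17REL, BLK, LAMP3, CD40 and POU2F2 followed. FCER2 encodes CD23 on mature B cells and follicular dendritic cells, TNFRSF13C is the receptor for the B cell survival factor BAFF, LTB is a lymphotoxin subunit and BLK is a B cell kinase. The 3 genes most like BCL6 were ANKRD33B (0.94 in colon, 0.95 in ileum), ADAMTS10 (0.96, 0.92) and COPG2 (0.92, 0.92).

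**Figure D2:**
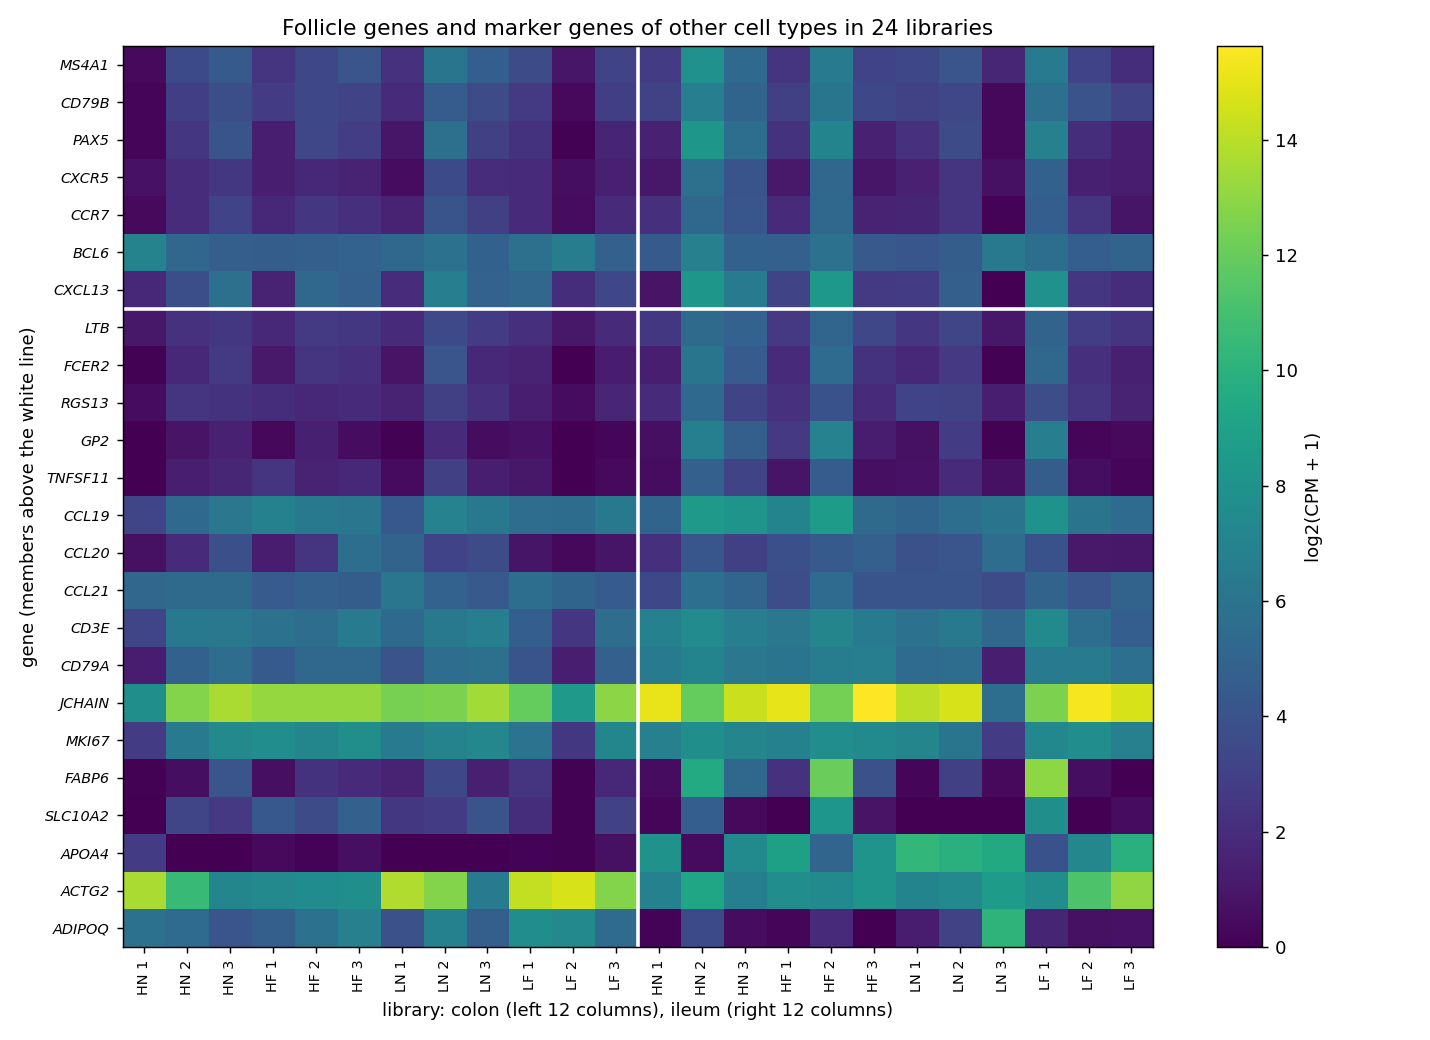
Level of the 7 genes (above the white line) and of marker genes of other cells (below it) as log2(CPM + 1), with 1 column per library, colon left of ileum. Ileum HN 2, HF 2 and LF 1 are high in the follicle genes, GP2 and FABP6 and low in APOA4, whereas colon HN 1 and LF 2 and ileum LN 3 are low in follicle genes, JCHAIN and MKI67 and high in BCL6.

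The 3 ileum libraries rich in follicle genes also differed in genes of other cells. GP2, which marks antigen-sampling M cells of the follicle epithelium in mice, had 107, 120 and 103 CPM in HN 2, HF 2 and LF 1, against 25.6 CPM in HN 3 and at most 5.99 CPM in the other 8. TNFSF11, the RANK ligand that induces M cells in mice, had 27.3, 22.3 and 23.4 CPM there, against at most 8.16 CPM in the other 9. JCHAIN had 3855, 5256 and 6099 CPM, below all other ileum libraries except LN 3. APOA4, a small intestinal enterocyte gene, had 0.358, 33.1 and 14.5 CPM, against 150 to 1319 CPM in the other 9. FABP6 over 500 CPM picked out the same 3 libraries. None of the 3 LN libraries of the ileum was among them. Without these 3 libraries 0 members were called for fibre or for NCG in the ileum.

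**Figure D3:**
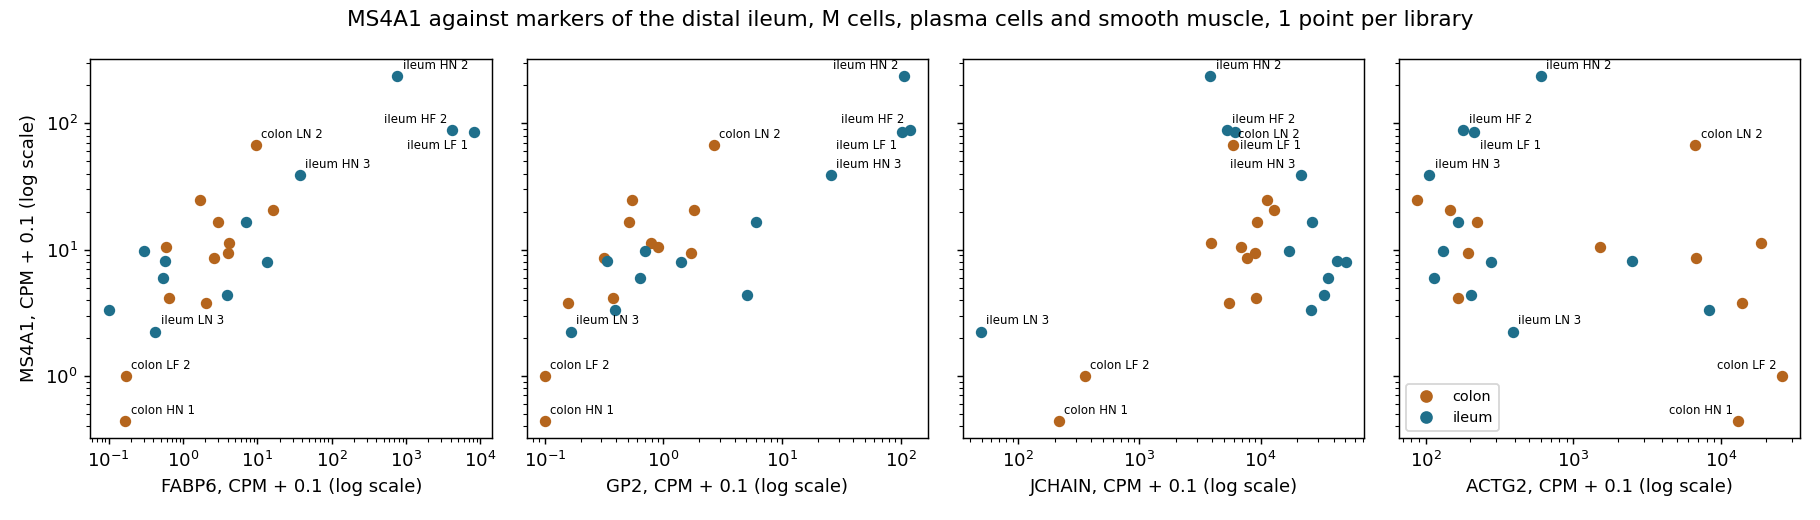
MS4A1 against FABP6, GP2, JCHAIN and ACTG2, each as CPM plus 0.1 on log axes, 1 point per library and tissue by colour. The 3 ileum libraries with FABP6 over 500 CPM have MS4A1 at 84.8 to 237.8 CPM, and the libraries with the least JCHAIN lie at or below 2.14 CPM.

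The first question of the design is what a high-fibre diet did in the ileum. All 7 members were higher on average in high-fibre libraries (HN and HF) than in low-fibre libraries (LN and LF), but by less than the spread between libraries. MS4A1 averaged 63.8 CPM with high fibre and 20.7 CPM with low fibre, a log2 fold change of 1.70 ± 1.11 (SE). CXCL13 averaged 122 CPM with high fibre and 45.8 CPM with low fibre, a log2 fold change of 2.08 ± 1.60. The log2 fold changes were 2.41 ± 1.49 for PAX5, 1.87 ± 1.05 for CCR7, 1.85 ± 1.19 for CXCR5, 1.64 ± 0.90 for CD79B and 0.21 ± 0.53 for BCL6. Of the 3 libraries rich in these genes, 2 are on high fibre and 1 is on low fibre.

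By edgeR's quasi-likelihood test 0 of the 7 members passed an adjusted p of 0.05 for fibre in the ileum, against 0% of 15103 genes, and 0 had an unadjusted p under 0.05. The adjusted p was 0.802 to 0.952, and DESeq2 and limma voom also called 0 members. The 95% intervals were wide, from -0.47 to 3.87 for MS4A1 and from -1.06 to 5.22 for CXCL13. They use the normal quantile of 1.96 times the SE and are narrower than the quasi-likelihood test implies. The members' median of 1.85 stood against -0.02 over all genes tested. In B lineage genes other than the members 27 of 28 were also positive, with a median of 0.90 and 0 called, while the 12 smooth muscle genes were all negative, with a median of -1.960 and 0 called. The summed level of the 12 smooth muscle genes was 1293 to 54396 CPM across the ileum libraries, highest in LF 3. With smooth muscle and enterocyte markers as covariates the fibre value was -0.24 for MS4A1, -0.57 for PAX5 and -1.16 for CXCL13, it remained positive for the other 4 genes at 0.08 to 0.43, and 0 members were called.

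For NCG in the ileum, 6 of the 7 fitted values were negative and none passed. Averaged within each fibre level, the log2 fold change of NCG over no NCG was -1.37 ± 1.57 for CXCL13, -0.90 ± 1.03 for CCR7, -0.77 ± 1.43 for PAX5, -0.71 ± 0.88 for CD79B, -0.65 ± 1.16 for CXCR5, -0.13 ± 1.08 for MS4A1 and 0.42 ± 0.53 for BCL6. The mean levels ran the other way for MS4A1, with 51.8 CPM with NCG (HN and LN) and 32.7 CPM without it (HF and LF); HN 2 alone had 237.8 CPM. PAX5 likewise averaged 62.5 CPM with NCG and 42.0 CPM without it, and CXCR5 averaged 12.9 CPM with NCG and 11.2 CPM without it. CD79B averaged 26.35 CPM with NCG and 26.29 CPM without it, so the mean levels and the fitted values differed in sign for 4 of the 6 genes.

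In this comparison edgeR called 0 of 7 members against 5.85% of 15103 genes, with 0 members at an unadjusted p under 0.05 and an adjusted p of 0.660 to 0.956. DESeq2 and limma voom called 0 as well. The signs rest on single libraries. Without the 3 ileum libraries with FABP6 over 500 CPM the values were positive for all 7 genes, and 0 members passed. Among the values were 2.21 for PAX5, 2.07 for CXCL13 and 1.37 for MS4A1. These 3 libraries are the highest of the ileum for every member except BCL6. HF 2 and LF 1 were without NCG and HN 2 with it, so this omission is not an independent check. LN 3, with NCG, was the lowest ileum library in 6 of the 7 genes. Leaving out HF 2 alone turned MS4A1 to 1.10 and PAX5 to 1.24, and leaving out LF 1 alone turned them to 1.13 and 1.26.

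Among 14 receptors and ligands that position cells in follicles and the gut wall, 1 passed with NCG in the ileum, a share close to the 5.85% of all genes called. ITGA4, the alpha 4 integrin of gut-homing lymphocytes, was higher with NCG by 1.58 on the log2 scale (edgeR adjusted p 0.0159), and the call was lost without HF 1 (adjusted p 0.0558) or HF 3 (0.0531). Its value with smooth muscle and enterocyte covariates was 1.04 (adjusted p 0.0655). No gene of the B lineage (28 tested), germinal centre (19), follicular helper T cell (10), follicular stroma (17), lymphotoxin and NF-kB (16) or M cell and follicle epithelium (11) lists passed in that comparison.

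Against LF alone, the members' median log2 fold change in the ileum was 0.97 in HN, 0.22 in HF and -2.22 in LN. The 3 comparisons share the LF libraries. Called were 0 of 7 members each, against 1.88% of genes for HN, 0% for HF and 4.34% for LN, with 0 members at an unadjusted p under 0.05. DESeq2 and limma voom called 0 members too. For LN the fitted values ran from -2.98 to 0.21 with 6 of 7 negative. MS4A1 averaged 9.37 ± 7.11 CPM in ileum LN and 31.98 ± 45.8 CPM in ileum LF (SD, n = 3 each), with LF 1 at 84.8 CPM. LN 3, the lowest ileum library in 6 of the 7 genes, had 2.14 CPM. The difference of the NCG effect between high and low fibre had a median of 3.21 with all 7 members positive, 0 called against 0% of genes, 0 members at an unadjusted p under 0.05 and 0 called by DESeq2 or voom. In it 11 of 12 smooth muscle genes, with a median of 3.09, and all 14 T and NK cell genes, with a median of 0.82, were also positive, with 0 called.

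In the colon the members were on average higher with NCG, in all 7 genes and with no call. PAX5 averaged 13.8 CPM with NCG and 3.75 CPM without it, a log2 fold change of 1.92 ± 1.12, and MS4A1 21.1 CPM with NCG and 8.38 CPM without it, a log2 fold change of 1.202 ± 0.91. The values were 1.09 ± 0.71 for CXCR5, 1.09 ± 0.72 for CCR7, 0.84 ± 1.002 for CXCL13, 0.69 ± 0.83 for CD79B and 0.42 ± 0.43 for BCL6. LN 2 was the highest library in all of these except BCL6. Of 7 members edgeR called 0, against 0% of 15075 genes; 0 had an unadjusted p under 0.05, the adjusted p was 0.514 to 0.779, and DESeq2 and voom called 0. With NCG and without it, the libraries overlapped for each of these genes. Among genes of other cells the sign differed by list. Positive were 11 of 12 smooth muscle genes, with a median of 1.44, and all 14 T and NK cell genes, with a median of 0.71. All fat cell genes tested were negative, from -1.22 for CIDEC to -0.16 for PLIN4. Most cell cycle and endothelial genes were also negative. Of the genes in these lists 0 were called. The members' values ran from -0.03 for CXCL13 to 0.79 for PAX5 with smooth muscle and enterocyte covariates.

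Fibre in the colon gave members' values of -0.59 to -0.01 with a median of -0.28, and all 12 smooth muscle genes were negative, with a median of -2.30. Against LF the medians in the colon were 0.68 in HN, 0.51 in HF and 1.64 in LN, with shared LF libraries, and the difference of the NCG effect between high and low fibre had a median of -1.90. The 12 smooth muscle genes ran the other way in that difference, with a median of 5.69; 11 of them had an unadjusted p of 0.013 to 0.027 and 0 were called (adjusted p 0.327 to 0.495). All 14 T and NK cell genes were negative in it, with a median of -1.66. In each of these 5 comparisons edgeR called 0 of 7 members and 0% of 15075 genes, no member had an unadjusted p under 0.05, and DESeq2 and voom called 0 members. The tissues' diet effects were also set against each other. Colon minus ileum, the members' median was -2.18 for the fibre effect and 1.69 for the NCG effect, and 0 of 7 members and 0% of 15675 genes passed in either, with 0 members at an unadjusted p under 0.05 and 0 called by DESeq2 or voom.

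Between tissues, over the 4 diets, the fitted value of colon over ileum was negative for 6 of the 7 members, and none passed. CXCR5 averaged 2.71 ± 2.74 CPM in colon libraries and 12.05 ± 17.6 CPM in ileum libraries (SD, n = 12 each), a log2 fold change of -1.89 ± 0.74 (edgeR adjusted p 0.0656). PAX5 averaged 8.79 ± 15.0 CPM in colon and 52.3 ± 92.6 CPM in ileum, a log2 fold change of -2.39 ± 0.997 (edgeR adjusted p 0.0807). CD79B averaged 7.52 ± 5.97 CPM in colon and 26.3 ± 31.6 CPM in ileum, a log2 fold change of -1.59 ± 0.65 (edgeR adjusted p 0.0764). The tissues overlapped in every gene. The medians of PAX5 were 4.24 CPM in colon and 3.75 CPM in ileum, and those of CXCR5 2.07 CPM in colon and 1.68 CPM in ileum, so by median neither gene was lower in the colon. The medians were also higher in the colon for MS4A1, with 9.86 CPM in colon and 8.80 CPM in ileum, for CXCL13, with 19.5 CPM in colon and 6.92 CPM in ileum, and for BCL6, with 31.7 CPM in colon and 27.6 CPM in ileum. By median, then, CD79B and CCR7 alone were lower in the colon.

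For the other members the log2 fold change of colon over ileum was -1.40 ± 0.76 for MS4A1, -1.35 ± 0.995 for CXCL13, -1.23 ± 0.67 for CCR7 and 0.10 ± 0.36 for BCL6, with edgeR adjusted p of 0.180, 0.333, 0.184 and 0.866. edgeR called 0 of 7 members against 28.4% of 15675 genes, with CD79B, CXCR5 and PAX5 at an unadjusted p under 0.05. DESeq2 called these 3 genes lower in the colon and voom called 0. Leaving out 1 library let edgeR call 0 to 2 members, with CXCR5 and PAX5 passing without colon LN 2, CXCR5 without ileum HN 1 or ileum LF 3, and CD79B without ileum LN 3. Without the 3 ileum libraries with FABP6 over 500 CPM, 0 members passed. The value was then 0.41 for MS4A1, 0.23 for PAX5, 0.11 for CXCR5, 0.18 for CCR7 and 1.22 for CXCL13. CD79B remained negative at -0.52. These 3 libraries are the highest of the ileum for every member except BCL6, so leaving them out lowers the ileum side in advance.

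**Figure D4:**
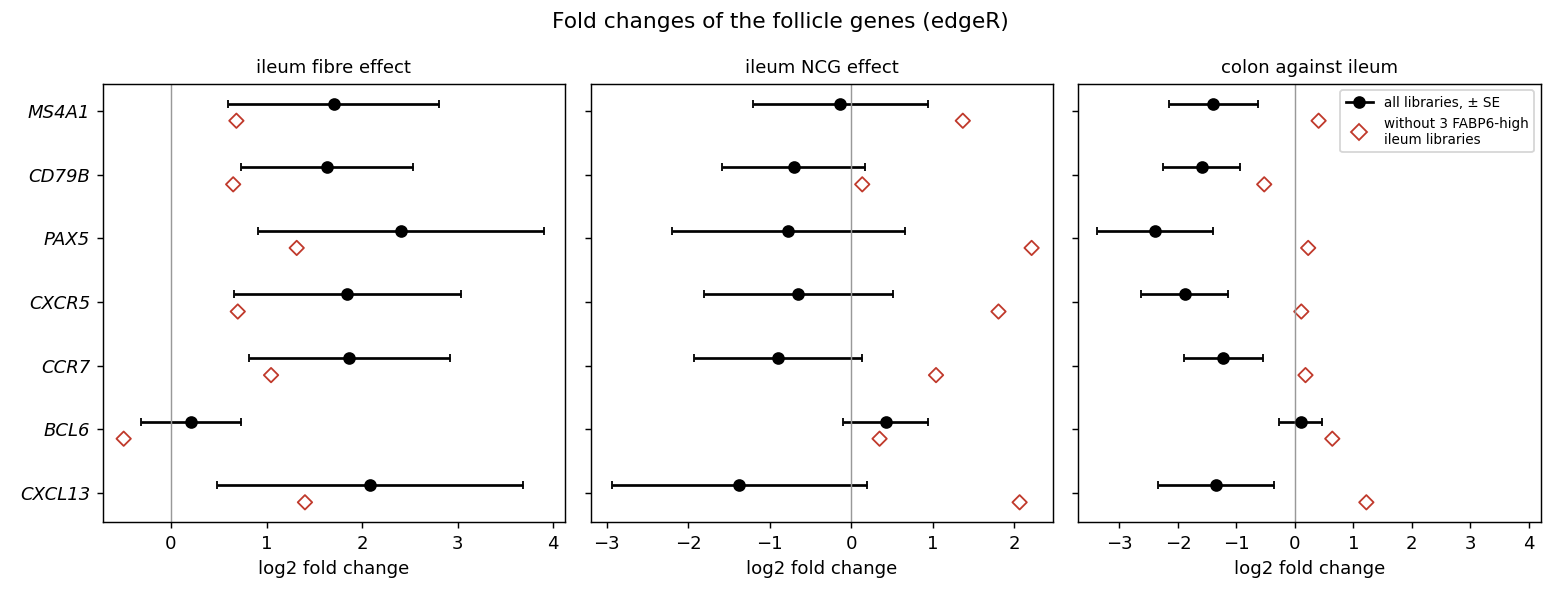
Log2 fold changes of the 7 genes for high over low fibre and NCG over no NCG in the ileum and for colon over ileum; black points with bars are edgeR estimates ± SE from all libraries, and open diamonds the values without the 3 ileum libraries with FABP6 over 500 CPM. For NCG in the ileum and for colon over ileum, most diamonds lie on the other side of 0. These 3 libraries are the highest of the ileum for every gene except BCL6, so leaving them out lowers the ileum level in advance.

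Within single diets the members' median log2 fold change of colon over ileum was -2.99 in HN, -2.05 in HF, 1.78 in LN and -2.47 in LF. In LN all 7 values were positive. LN is the diet whose ileum libraries include none with FABP6 over 500 CPM, and ileum LN 3 was the lowest ileum library in 6 of the 7 genes. Colon LN 2 was the highest colon library in 6 of the 7. Which of these libraries accounts for the sign was not tested. edgeR called 0 of 7 members in each diet, against 2.89% of genes in HN, 3.04% in HF, 4.31% in LN and 2.16% in LF. CD79B in HN was the single value with an unadjusted p under 0.05, at -2.99 ± 1.37 (edgeR adjusted p 0.218). DESeq2 and voom called 0 members in each diet.

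Other follicle genes differed between the tissues in the same direction, and more of them passed. Among B lineage genes other than the members 17 of 28 were lower in the colon, with a median of -1.11 against -0.03 over all genes tested, of which 15.9% were called lower. The 4 with the smallest p were PIK3AP1, an adaptor of B cell receptor signalling, at -1.40; BLNK, the B cell linker, at -1.06; SPIB, a transcription factor of B cells and M cells, at -1.95; and LYN, a kinase of the B cell receptor, at -1.03 (edgeR adjusted p 0.0050 to 0.0122). Each kept its call in all 24 single omissions. With smooth muscle and enterocyte covariates all 4 lost it (adjusted p 0.281 to 0.981), with PIK3AP1 at -1.92, BLNK at -0.08, SPIB at 0.13 and LYN at 0.50. SPIB also lost it without the 3 libraries with FABP6 over 500 CPM (adjusted p 0.082). The count of 17 was 10 without ileum LF 1 or ileum LN 2, 11 with the replicate block and 0 with smooth muscle and enterocyte covariates. It was 10 with limma voom and 19 with DESeq2. With B cell markers as a covariate 10 were called, 1 of them higher in the colon. Over all genes 4453 were called in colon over ileum as reported, and 608 to 5347 over the alternatives. A smaller count in this or the following lists can thus go with fewer calls over all genes. CD79A, the partner of CD79B, was lower at -1.38 (edgeR adjusted p 0.0495) but lost the call in 20 of 24 omissions.

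Among germinal centre genes 9 of 19 were lower in the colon, where 15.9% of all genes were lower. They included the migration receptor P2RY8 at -1.71, KLHL6 at -1.87 and ARHGAP25 at -1.16 (edgeR adjusted p 0.0022 to 0.0069). S1PR2, on the same list, averaged 13.1 CPM in colon and 12.7 CPM in ileum. The count of 9 was 3 without ileum LF 1, 4 without ileum HN 2 and 4 with the replicate block. It was 3 with limma voom, 3 with B cell markers as a covariate and 10 with DESeq2. With smooth muscle and enterocyte covariates it was 0. Under these last covariates the values remained negative for P2RY8 at -2.51, KLHL6 at -2.04 and ARHGAP25 at -1.11. Without the 3 libraries with FABP6 over 500 CPM the count was 3 of the B lineage genes and 2 of the germinal centre genes, and ARHGAP25 was at -0.64 (adjusted p 0.0565). Some germinal centre genes were called higher in the colon in other settings. There was 1 of 9 without colon HN 1. Without the libraries lowest in JCHAIN and highest in FABP6 there were 2 of 6.

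Of 14 positioning genes 5 were lower in the colon: the small intestinal chemokine CCL25 at -7.15, its receptor CCR9 at -4.40, ITGA4 at -1.43, GPR18 at -1.59 (edgeR adjusted p at most 0.0092), and CXCR4. GPR18 was not called without the 3 libraries with FABP6 over 500 CPM, at -0.79 (adjusted p 0.0996). CCL25, CCR9 and ITGA4 passed in every omission and alternative. Of 17 stromal genes 3 were lower, TNFSF13B, which encodes the B cell survival factor BAFF, at -3.61, IL7 at -1.46 and the complement gene C4A at -1.19 (edgeR adjusted p at most 0.0023), a share close to the 15.9% of all genes called lower. Of 16 genes on a list of lymphotoxin and NF-kB genes 6 were lower and 1 was higher in the colon. Among the lower were TNFRSF11A, the receptor of RANK ligand, at -1.13, IL7R at -1.71 and LTB at -1.79 (edgeR adjusted p at most 0.0100). LTB was not called without the 3 libraries with FABP6 over 500 CPM (adjusted p 0.108).

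Of 11 genes on a list for M cells and follicle epithelium 4 were lower, GP2 at -4.88, AIF1 at -0.95, ICAM2 at -0.57 and UBD at -1.03. Which cells of the bowel wall held this RNA was not tested. GP2 had an adjusted p of 0.0044, and of 0.181 without those 3 libraries; ICAM2 and UBD lost their calls in 15 and 17 of 24 omissions. AIF1 was not called without those 3 libraries (-0.54, adjusted p 0.102), with the replicate block (adjusted p 0.0604) or with the B cell marker covariate (-0.40, adjusted p 0.0567). Of 10 follicular helper T cell genes 2 were lower, a share near the 15.9% of all genes, MAF at -1.12 and CD40LG at -1.25, which lost its call in 17 omissions. With smooth muscle and enterocyte covariates CCL25, CCR9 and ITGA4 kept their calls and the other genes given here with values from the B cell, follicle and M cell lists lost theirs. A lost call was not always a smaller value: GP2 was at -3.58 and TNFSF13B at -2.01 under these covariates, while GPR18 was at -0.47, MAF at -0.50 and CD40LG at -0.26. The lists share their libraries with the members. Of other cells, 3 of 14 T and NK cell genes and 3 of 10 plasma cell genes were lower in the colon, where 15.9% of all genes were lower, and 10 of 12 smooth muscle genes were higher, where 12.5% of all genes were higher. The T and NK cell count was 0 to 7 and the plasma cell count 0 to 9 over the alternatives. The smooth muscle count was 1 without colon HN 1 and 0 with the replicate block or the B cell marker covariate. The summed level of the smooth muscle genes was 1680 to 125889 CPM in colon libraries and 1293 to 54396 CPM in ileum libraries, and that of the plasma cell genes 424 to 18731 CPM in colon and 2332 to 71119 CPM in ileum. With smooth muscle and enterocyte covariates 0 members were called between the tissues, and the values were -1.55 for BCL6, -0.81 for CD79B, -0.70 for CXCR5, -0.09 for CCR7, 0.13 for PAX5, 0.32 for MS4A1 and 1.15 for CXCL13.

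With the mean log2 CPM of B cell markers other than the members (among them CD79A, CD22, BANK1 and BLK) as a covariate, CXCL13 was higher in the colon by 2.13 on the log2 scale (edgeR adjusted p 0.0117) and CCR7 by 0.75 (edgeR adjusted p 0.0052), while the other 5 members did not pass and lay between -0.01 and 0.80. The covariate itself differs between the tissues, and CD79A is also expressed by plasma cells. The ratio of each gene to MS4A1 within a library gives a description on the FPKM scale, over the libraries with at least 30 counts of MS4A1 (10 in colon, 12 in ileum). For CXCL13 this ratio had a median of 2.67 in colon and 2.26 in ileum, and for CCR7 of 0.341 in colon and 0.310 in ileum. For CXCR5 it had a median of 0.171 in colon and 0.208 in ileum, for PAX5 of 0.0839 in colon and 0.134 in ileum, and for CD79B of 0.938 in colon and 1.197 in ileum. The ratios overlapped between tissues for each gene.

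**Figure D5:**
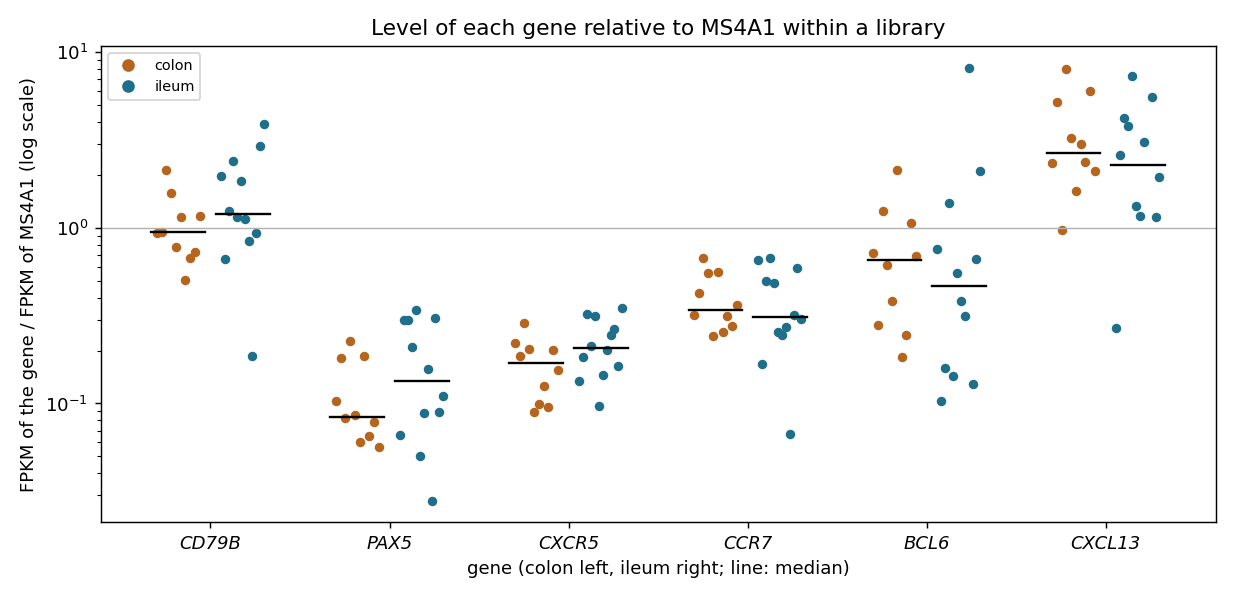
Ratio of each gene's FPKM to that of MS4A1 within a library, on a log axis, for the 10 colon and 12 ileum libraries with at least 30 counts of MS4A1; lines are medians, and CXCL13 in ileum LN 3, at 0, is not drawn. Colon and ileum points overlap for every gene, and BCL6 runs from 0.103 to 8.13 in the ileum.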

How the data were processed

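Per the submitters' processing notes, reads were trimmed with fastp 0.22.0, aligned to Sscrofa11.1 with HISAT2 2.1.0 and counted with HTSeq 0.9.1; strand settings are not given in the sources used here. The authors deposited raw counts and FPKM per gene; the FPKM equal the counts scaled by gene length and library total. The deposited annotation columns gave names and positions, and all 20674 gene IDs matched RefSeq. Counts were tested with edgeR 4.0.16 (R 4.3.3): filterByExpr, TMM, glmQLFit and glmQLFTest with Benjamini-Hochberg adjustment at 0.05 over 15103 ileum, 15075 colon or 15675 genes in both. Standard errors are the log2 fold change divided by the root of F. Correlations use log2 CPM with a prior count of 2. DESeq2 1.42.0 and limma 3.58.1 (voom) were alternatives, beside other scalings, filters, covariates and omissions. The test was checked on counts simulated with the common dispersion of all genes. Members other than BCL6 spread far more widely than most genes, so the check does not cover their spread. Named genes were the members, up to 4 called genes with the smallest p per list, a few markers and the genes most like the members. Some of these genes are not reported here. The members, the 16 gene lists and the tests were chosen with earlier results of these data known. The labels do not say whether replicate numbers pair the libraries, and the main tests treated the libraries as separate.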

Additional observations from a re-analysis of the deposited data

How the results depend on the processing

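Over 500 alternative counts of called members 6 moved, all of them in colon over ileum: 3 with DESeq2, 2 with the B cell marker covariate and 0 to 2 when 1 library was left out. Over 686 alternative member values in 4 comparisons, 82 changed sign. In colon over ileum 8 values passed the threshold with their sign unchanged, and CXCL13 and CCR7 passed with a changed sign under the B cell marker covariate (adjusted p 0.0117 and 0.0052); no other member value newly passed. The values below are log2 fold changes, and the causes were not tested. In the ileum, the libraries with FABP6 over 500 CPM are the highest for every member except BCL6. Omitting them lowers the ileum level in advance. With limma voom, the sign changed for NCG in the ileum to 0.065 (MS4A1), 0.020 (CXCR5), and for colon over ileum to 0.013 (CXCL13). Without the 3 ileum libraries with FABP6 over 500 CPM, it changed for fibre in the ileum to -0.49 (BCL6), and for NCG in the ileum to 0.13 (CD79B), 1.37 (MS4A1), 1.04 (CCR7), 1.81 (CXCR5), 2.21 (PAX5), 2.07 (CXCL13), and for colon over ileum to 0.41 (MS4A1), 0.18 (CCR7), 0.11 (CXCR5), 0.23 (PAX5), 1.22 (CXCL13). Without ileum LN 3, colon HN 1 and colon LF 2, left out after the data were seen, it changed for NCG in the ileum to 0.10 (MS4A1), -0.078 (BCL6), and for colon over ileum to -0.016 (BCL6). Without all 6 of these libraries, also chosen after the data were seen, it changed for NCG in the ileum to 0.42 (CD79B), 1.61 (MS4A1), 1.32 (CCR7), 2.02 (CXCR5), 2.49 (PAX5), -0.15 (BCL6), 2.36 (CXCL13), and for colon over ileum to 0.56 (MS4A1), 0.30 (CCR7), 0.22 (CXCR5), 0.37 (PAX5), 1.33 (CXCL13). With smooth muscle and enterocyte covariates, which themselves differ between the tissues, it changed for fibre in the ileum to -0.24 (MS4A1), -0.57 (PAX5), -1.16 (CXCL13), and for NCG in the colon to -0.033 (CXCL13), and for colon over ileum to 0.13 (SPIB), 0.50 (LYN), 0.10 (ICAM2), 1.72 (UBD), 0.32 (MS4A1), 0.13 (PAX5), -1.55 (BCL6), 1.15 (CXCL13). With the B cell marker covariate it changed for fibre in the ileum to -0.35 (MS4A1), -0.44 (CXCR5), -0.20 (PAX5), -0.14 (BCL6), -0.39 (CXCL13), and for NCG in the ileum to 0.72 (MS4A1), 0.019 (CCR7), 0.49 (CXCR5), 0.33 (PAX5), and for NCG in the colon to -0.57 (CD79B), -0.35 (MS4A1), -0.024 (CCR7), -0.22 (PAX5), -0.57 (CXCL13), and for colon over ileum to 0.0079 (CD79B), 0.58 (MS4A1), 0.75 (CCR7), 0.24 (CXCR5), 0.80 (PAX5), -0.0066 (BCL6), 2.13 (CXCL13). Leaving out 1 library gave, where the sign changed, values for fibre in the ileum -0.36 to 0.71 (BCL6); for NCG in the ileum -1.17 to 1.13 (MS4A1), -0.15 to 0.71 (BCL6), -1.35 to 0.18 (CD79B), -1.35 to 0.45 (CCR7), -1.40 to 1.13 (CXCR5), -1.88 to 1.26 (PAX5), -2.32 to 0.82 (CXCL13); for NCG in the colon -0.12 to 0.67 (BCL6); for colon over ileum -0.13 to 0.40 (BCL6). Same-numbered colon and ileum libraries of a diet had correlations of their deviations between -0.37 and 0.31. Of 12 colon libraries, 6 were most like the ileum library of their own number. These values cannot tell whether libraries share sows, and no pairing was assumed in the main tests. With the replicate block 0 members were called in any comparison, the count over all genes for colon over ileum was 3001, and the sign changed for BCL6 with fibre in the ileum (-0.0034) and for CXCL13 with NCG in the colon (-0.042).

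Over all genes tested, the count called over the alternatives, with the count as reported in brackets, was 514 to 1812 (884) for NCG in the ileum, 0 to 914 (284) for ileum HN over LF, 0 to 1647 (656) for ileum LN over LF, 608 to 5347 (4453) for colon over ileum, 2 to 1480 (453) for colon over ileum in HN, 224 to 1667 (476) for in HF, 256 to 1819 (676) for in LN, 30 to 1286 (338) for in LF. Where 0 genes were called as reported, the largest count in any alternative was 2 for fibre in the ileum, 26 for the fibre by NCG interaction in the ileum, 12 for ileum HF over LF, 20 for fibre in the colon, 1533 for NCG in the colon, 67 for the interaction in the colon, 1953 for colon HN over LF, 1053 for colon HF over LF, 1172 for colon LN over LF, 5 for the fibre effect of colon minus ileum, 10 for the NCG effect of colon minus ileum. Libraries of 1 group differed widely: in ileum HN, counts of MS4A1 ran from 66 to 3985. A p that missed the threshold does not show that diets or tissues were alike. Values under 10 counts, such as CD79B in colon HN 1 and ileum LN 3, carry a large counting error.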

Other observations

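The chemokines of the T cell zone and of the epithelium followed the follicle genes to different degrees. CCL19, which draws CCR7-bearing cells to the T cell zone, had a lowest, median and highest level of 8.47, 71.1 and 122.7 CPM in colon libraries, against 31.5, 63.2 and 404 CPM in ileum libraries. Its 4 highest ileum libraries were HF 2, HN 2, HN 3 and LF 1, which were also high in CXCL13. CCL21, another ligand of CCR7, ran from 19.8 to 70.5 CPM in colon and from 9.69 to 50.7 CPM in ileum. CCL20, a chemokine of the follicle epithelium, did not follow the members. It was highest in colon HF 3 at 49.2 CPM and in ileum LN 3 at 46.2 CPM, and CXCL13 had no count in ileum LN 3. CD3E, a T cell receptor subunit, was 4.58 to 100.2 CPM in colon and 24.2 to 185 CPM in ileum, with its highest level in ileum HN 2 and its lowest in colon LF 2.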
